A study of Mus musculus with 12 samples.

Results

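The cytosolic ribosomal protein genes were examined in Min6 cells, a mouse insulinoma line of pancreatic beta cells, grown in 3 culture conditions. A gene was taken as a member where a row of the array carried exactly 1 annotated symbol, and that symbol was Rplp0, Rplp1, Rplp2, Rpsa or began with Rpl or Rps and a digit; the ribosomal S6 kinases and pseudogene symbols were left out, and the row with the highest mean was kept for each gene. The rule found 63 genes on 219 of the 35556 rows of the table, out of 19938 genes with a row of their own. They comprised 33 standard proteins of the large subunit, 21 of the small subunit, 6 variants encoded by related genes (Rpl3l, Rpl7l1, Rpl10l, Rpl39l, Rps4l and Rps27l) and 3 further symbols that the rule took by their spelling (Rpl32l, Rps19bp1 and Rps23rg1). Rps19bp1 encodes a protein that binds RPS19 and is not itself a subunit. Of 77 standard ribosomal protein genes listed, 54 were members, and the other 23, among them Rpl3, Rpl11 and Rps27a, had no row with a single symbol and were described only through rows that name several genes.

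The condition labelled CC was serum-containing culture (DMEM with 15% fetal calf serum, 2-mercaptoethanol and Pen-Strep) at 20% oxygen over all 15 days. In DC the first 5 days were the same, and the final 10 days were serum-free at 5% oxygen in DMEM-F12 with apo-transferrin, progesterone, putrescine, selenite and Pen-Strep. In RC the serum-free, 5% oxygen culture lasted for only the middle 5 days, and the cells were returned to the medium and oxygen of CC for the final 5 days. Serum, oxygen, basal medium and supplements changed together, so their parts cannot be told apart. Each condition had 4 arrays from 1 experiment with 1 cell line, and p-values therefore measure the spread between these samples, which may be technical. All 9 beta cell markers measured had means over 12 arrays above the median of all values of the table, 7.99 (10.1 to 13.8 on the log2 scale). The same was found for 0 of 4 endothelial, 1 of 4 exocrine, 2 of 4 immune and 3 of 5 fibroblast markers, a rough check only, since probes of different genes differ in brightness at the same level. Between DC and CC, Nkx2-2 and Slc30a8 rose and Chgb fell among the beta cell markers by limma, calls lost in 7, 13 and 4 of 24 alternatives, and 0 markers of the other types were called.

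Ribosomal proteins assemble with ribosomal RNA into the large and the small subunit, and most of them are needed in equal numbers in every ribosome. Their mRNAs are among the most abundant of a growing cell and typically start with a 5′ terminal oligopyrimidine (TOP) motif, a C followed by an unbroken run of C and T. The kinase complex mTORC1 and the RNA-binding protein LARP1 control the translation of TOP mRNAs in response to nutrients and growth factors, and MYC is known to raise the transcription of many ribosomal protein genes. The arrays measured the abundance of transcripts relative to the total RNA and not their translation. In such bulk samples, fewer cells of a type and less RNA per cell cannot be told apart.

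The start-site sequences are shown because the TOP motif is the feature of the family through which serum and nutrients are known to act. Annotated starts were taken from RefSeq (GRCm38.p6) for the 51 members found there, which have 60 starts; Rpl21, Rpl23a, Rpl29, Rpl30, Rpl36, Rpl7, Rpl8, Rplp1, Rps14, Rps20, Rps29 and Rps4l were not matched. Each line gives 25 bases before and 25 bases after the start, 5′ to 3′ on the strand of the transcript, and capitals mark the pyrimidine run where a C stands at the first transcribed base and at least 4 further C or T follow. The following 5 had the run at the annotated first base: Rps6 (chr4:86857343-86857392, minus strand), Rplp2 (chr7:141447626-141447675, plus strand), Rps10 (chr17:27635220-27635269, minus strand), Rpl14 (chr9:120571492-120571541, plus strand) and Rpl28 (chr7:4792940-4792989, plus strand).
Rps6: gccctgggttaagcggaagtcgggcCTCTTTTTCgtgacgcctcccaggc
Rplp2: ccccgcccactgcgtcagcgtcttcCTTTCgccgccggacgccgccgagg
Rps10: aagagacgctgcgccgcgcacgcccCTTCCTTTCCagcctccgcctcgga
Rpl14: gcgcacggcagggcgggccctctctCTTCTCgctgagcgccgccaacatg
Rpl28: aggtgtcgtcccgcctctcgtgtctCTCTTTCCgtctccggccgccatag

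No such run stood at the annotated first base of Rpl12 (chr2:32961687-32961736, plus strand), Rplp0 (chr5:115559442-115559491, plus strand) or Rpl5 (chr5:107900503-107900552, plus strand), shown for contrast; Rpl12 had one that began within 10 bases of its start, and Rplp0 and Rpl5 did not.
Rpl12: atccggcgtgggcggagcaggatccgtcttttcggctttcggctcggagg
Rplp0: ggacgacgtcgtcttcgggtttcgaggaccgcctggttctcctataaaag
Rpl5: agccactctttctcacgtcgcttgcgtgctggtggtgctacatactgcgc

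The run stood at the first base of 10 of the 60 member starts (16.7%), against 2.51% of all 32851 starts in the table and 0 of 75 starts of mitochondrial ribosomal protein genes. By gene, Rpl14, Rpl28, Rpl32l, Rpl38, Rplp2, Rps10, Rps15a, Rps18, Rps21 and Rps6 had it. A run that began within 10 bases of the annotated start, on either side, was found for 51.7% of the member starts, 30.7% of all starts and 41.3% of the mitochondrial ones. These are matches of letters at annotated starts, which can differ from the starts used in Min6 cells.

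No ribosomal protein gene passed the test in any of the 3 comparisons. With limma and Benjamini-Hochberg adjustment over all 35556 rows at a threshold of 0.05, 0 of 63 members were called between DC and CC, where 6.64% of all rows were called. The call was made for 0 of 63 members between RC and DC, against 2.63% of all rows, and for 0 of 63 between RC and CC, against 0.796% of all rows. The smallest adjusted p among members was 0.11, 0.30 and 0.66 in these comparisons. At an unadjusted p under 0.05 there were 5 members between DC and CC (Rpl10a, Rpl12, Rpl32l, Rpl39l and Rps14), against 20.6% of all rows. There were 2 between RC and DC (Rps14 and Rps19), against 11.8% of all rows, and 0 between RC and CC, against 9.06%. The 3 comparisons share their arrays, so their values are not independent of each other.

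The differences were small as well as uncalled. The median difference of the members between DC and CC was 0.048 on the log2 scale, beside 0.045 over all rows, with 45 members above 0 and 18 below. Between RC and DC the median was -0.027, beside -0.013 over all rows, with 25 members above 0 and 38 below. Between RC and CC it was 0.017, beside 0.034 over all rows, with 39 above 0 and 24 below. When the rows are divided into 5 equal classes by mean, the brightest class holds 47 of the 63 members, and its median difference was -0.06 between DC and CC, 0.03 between RC and DC and -0.02 between RC and CC. In that class 15.7%, 5.68% and 2.11% of the rows were called. The member differences ran from -0.31 (Rpl14) to 0.20 (Rplp1) between DC and CC, and the median standard error of a member was 0.098. The sign of the DC median turned with the scaling: it was 0.090 after quantile normalization and -0.0041 after centring all arrays on a common median.

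The intervals show the precision of each difference, for 1 row per gene on the deposited scale and each gene taken alone. They do not cover the choice of row or scaling. The 2 rows of Rps9, for example, gave differences from -0.21 to -0.0092 between DC and CC, and other scalings, given below, moved some differences. The 95% interval of the difference between DC and CC lay within 1.5-fold in either direction for 62 of the 63 members, the exception being Rpl14, and it included 0 for 58 of them. Between RC and DC, and between RC and CC, all 63 intervals lay within 1.5-fold, and 61 and 63 included 0. Over all rows, 86.8%, 90.1% and 92.2% of the intervals lay within 1.5-fold in the 3 comparisons. The widest bound of any member in the comparison of DC with CC was 1.55-fold.

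**Figure D1:**
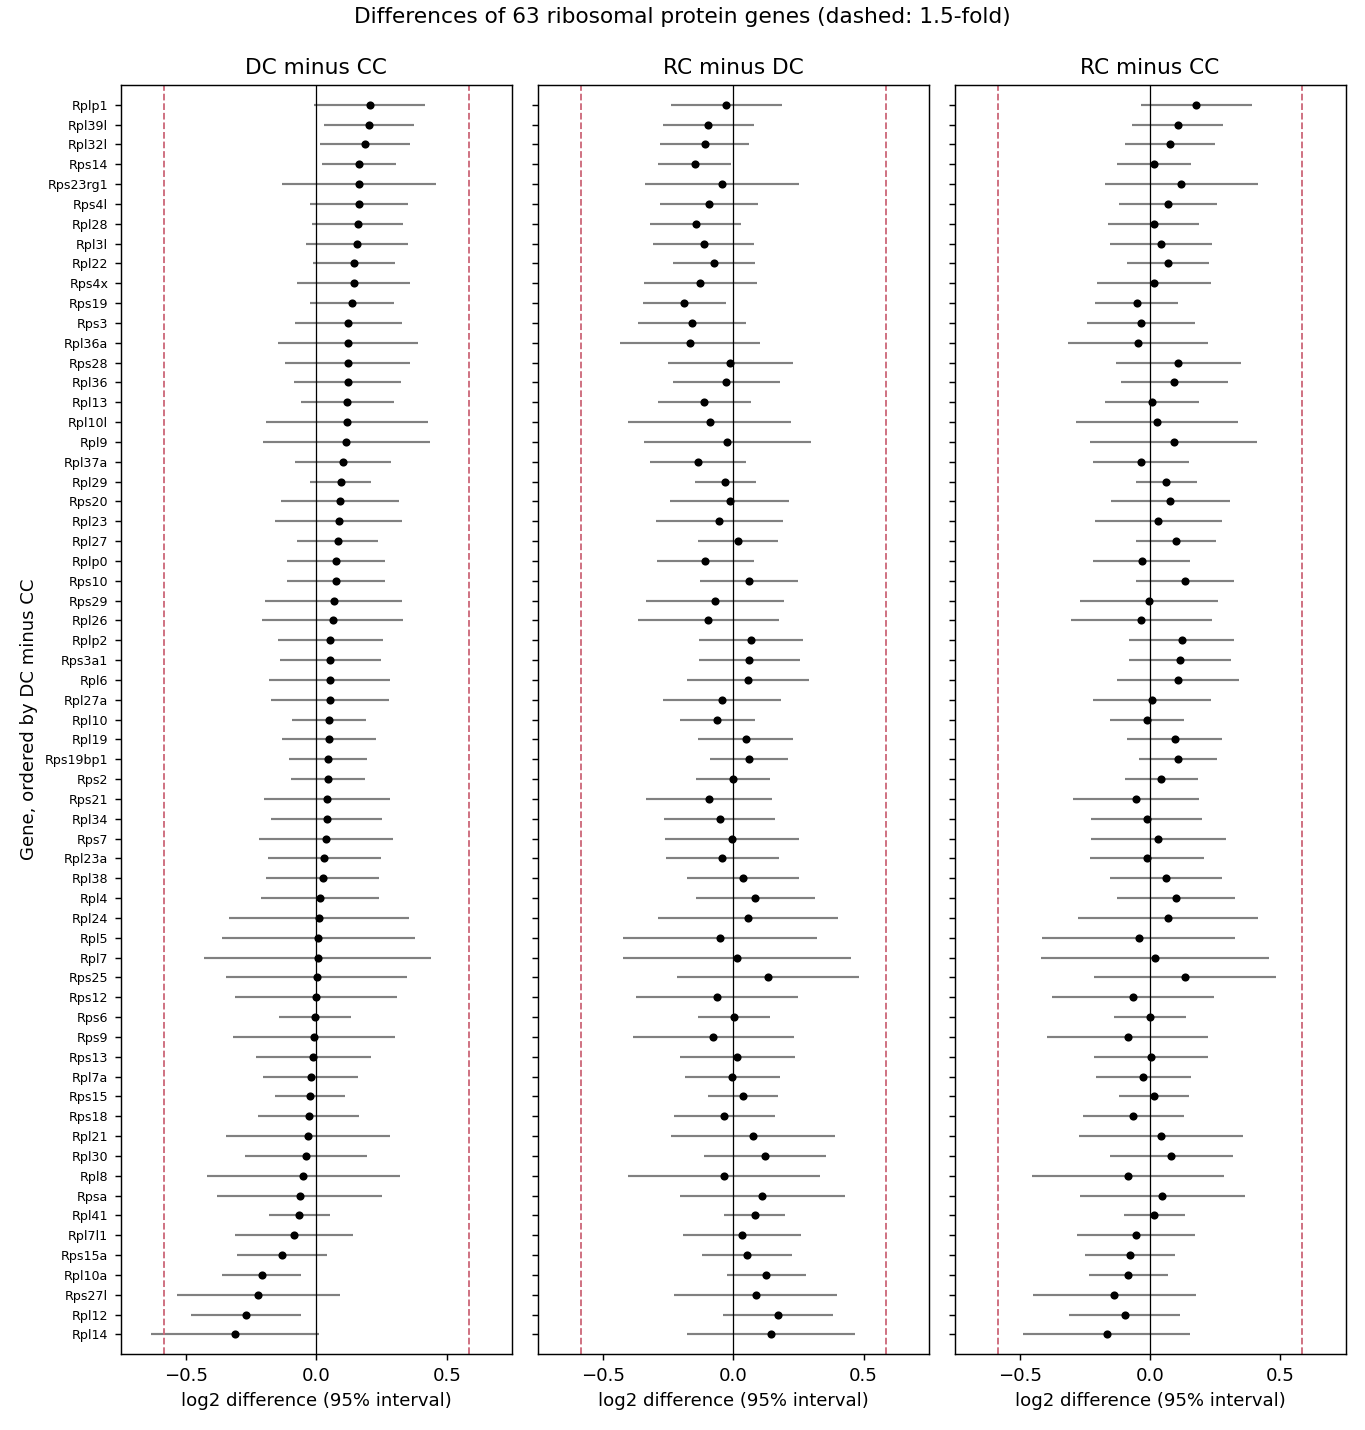
Difference in log2 value (x axis) of each of the 63 ribosomal protein genes (y axis, ordered by DC minus CC) in the 3 comparisons; points are differences of means over 4 arrays each, lines are 95% intervals from limma and dashed lines mark 1.5-fold. All intervals stay between the dashed lines except that of Rpl14 for DC minus CC, and none was called after adjustment.

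The medians of the subunits lay close together. The 33 large subunit genes had a median difference between DC and CC of 0.048 and the 21 small subunit genes one of 0.040, and the 6 variants had one of 0.14, in each case with 0 called (limma, unadjusted p under 0.05 for 2, 1 and 1). Differences between these sets were not tested. Of the variants, 4 were above 0 (Rpl3l, Rpl10l, Rpl39l and Rps4l), all on dim rows near or below the median of all values. The other 2, Rps27l and Rpl7l1, were brighter and below 0. Over all rows, the 5 brightness classes had medians of 0.046, 0.11, 0.099, -0.02 and -0.06 from the dimmest to the brightest. The part of brightness in the median of the variants was not tested. The 7 measured members of a list of genes mutated in Diamond-Blackfan anaemia, an inherited failure of red cell formation (Rpl5, Rpl26, Rps7, Rps10, Rps19, Rps28 and Rps29), all had differences above 0 between DC and CC in the row kept, from 0.0071 to 0.14, and 0 were called (0 at an unadjusted p under 0.05). Over all members 45 of 63 were above 0, and over all rows 21444 of 35556. For Rpl5 only 1 of its 5 rows was above 0, with differences from -0.12 to 0.0071, and for Rps7 2 of 3 rows were. Of a list of 7 genes for proteins along the peptide exit tunnel, which is not complete, Rpl4, Rpl19 and Rpl23a were measured. Their differences lay between 0.014 and 0.048 for DC against CC, and 0 were called (0 at an unadjusted p under 0.05).

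The stalk of the large subunit recruits the translation factors, and its 4 genes had a row each and 0 calls by limma. Rplp1, an acidic stalk protein, was at 12.41, 12.55, 12.15 and 12.19 on the 4 CC arrays, 12.47, 12.57, 12.58 and 12.49 on the DC arrays and 12.48, 12.39, 12.73 and 12.42 on the RC arrays (log2 values, replicates 1 to 4). It had the largest positive difference between DC and CC, 0.20 (SE 0.10, adjusted p = 0.26 by limma), and the highest CC array stood above 2 of the DC arrays, so the groups overlap. Rplp0, which anchors the acidic proteins, was at 12.81 ± 0.19, 12.88 ± 0.08 and 12.78 ± 0.01 in CC, DC and RC (SD, n = 4), with RC arrays that lay almost on top of each other and CC arrays that spread over 0.38. Rplp2, the partner of Rplp1, was at 8.97 ± 0.16, 9.02 ± 0.15 and 9.09 ± 0.08 in CC, DC and RC (SD, n = 4). The 3 P proteins thus differed by at most 0.20 between any 2 conditions, and none was called.

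Rpl12, which binds at the base of the stalk, went the other way. Its values were 9.33, 9.23, 9.17 and 9.19 in CC, 9.24, 8.94, 8.95 and 8.71 in DC and 9.21, 9.14, 9.01 and 9.18 in RC. The DC arrays 2 to 4 lay below all CC arrays and DC 1 lay among them. The difference between DC and CC was -0.27 (SE 0.10, 95% interval -0.48 to -0.06, adjusted p = 0.14 by limma), and that between RC and DC was 0.17 (adjusted p = 0.58).

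Rpl12 was 1 of 8 large subunit genes below 0 in DC against CC, and Rpl10a and Rpl14 were the others with differences beyond -0.2. Rpl10a, whose protein forms the mobile stalk beside the exit site for tRNA, was at 12.10, 12.04, 11.87 and 11.85 in CC, 11.77, 11.71, 11.85 and 11.68 in DC and 11.95, 11.84, 11.86 and 11.86 in RC. Only DC 3 reached into the CC range. Its difference between DC and CC of -0.21 (SE 0.07, adjusted p = 0.11 by limma) had the smallest adjusted p of the members, and its 4 rows gave differences from -0.24 to -0.19. Rpl14, whose start carries the TOP run, was at 8.56, 8.61, 8.26 and 8.46 in CC, 8.24, 7.99, 8.34 and 8.08 in DC and 8.49, 8.50, 7.80 and 8.44 in RC. The array RC 3 was lower than every DC array, and the other RC arrays lay within the CC range. Its difference between DC and CC was -0.31 (SE 0.15, adjusted p = 0.25 by limma), and it was called lower in DC when RC 3 was left out of the fit.

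Rpl5, which carries the 5S RNA into the ribosome and can bind MDM2 when assembly fails, spread widely within each condition. It was at 11.08, 11.02, 10.51 and 10.61 in CC, 10.88, 10.86, 11.10 and 10.40 in DC and 10.91, 10.75, 10.44 and 10.94 in RC. Its means of 10.80, 10.81 and 10.76 lay within 0.05 of each other, while the arrays of CC alone spanned 0.57. The DC arrays of Rpl28 lay close together at its highest mean. Rpl28 was at 12.33 ± 0.14, 12.49 ± 0.03 and 12.34 ± 0.13 in CC, DC and RC (SD, n = 4). Rpl41, the smallest ribosomal protein, was at 12.85 ± 0.05, 12.79 ± 0.05 and 12.87 ± 0.05 (SD, n = 4). For neither did any comparison pass the test.

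In the small subunit, Rps6, the substrate of the S6 kinases, had equal means in the 3 conditions after rounding. It was at 13.22, 13.09, 13.08 and 13.06 in CC, 13.11, 13.08, 13.17 and 13.07 in DC and 13.20, 13.10, 12.97 and 13.17 in RC. The mean was 13.11 in each condition, and the 95% interval of the difference between DC and CC ran from -0.14 to 0.13. Its 8 rows gave differences from -0.04 to 0.02 in that comparison. Rpsa, also known as the laminin receptor, was at 10.75 ± 0.35, 10.69 ± 0.16 and 10.80 ± 0.09 in CC, DC and RC (SD, n = 4), where replicates 1 and 2 of CC stood at 11.03 and 11.07 and replicates 3 and 4 at 10.47 and 10.42. Rps10, a protein near the mRNA entry site, was at 12.17 ± 0.17, 12.24 ± 0.08 and 12.30 ± 0.09 (SD, n = 4).

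Rps14 and Rps19 were the members with an unadjusted p under 0.05 between RC and DC, and both had their highest mean in DC. Rps14, a platform protein whose loss is known from the 5q- syndrome, was at 10.79, 10.78, 10.61 and 10.61 in CC, 10.88, 10.86, 10.92 and 10.79 in DC and 10.69, 10.65, 10.83 and 10.69 in RC. The DC and CC arrays did not overlap, though DC 4 and CC 1 were both at 10.79 after rounding, and RC 3 reached into the DC range. The difference was 0.16 between DC and CC (SE 0.07, adjusted p = 0.18) and -0.15 between RC and DC (adjusted p = 0.39, both by limma). Rps19, the gene most often mutated in Diamond-Blackfan anaemia, was at 10.04, 10.04, 9.82 and 9.84 in CC, 10.19, 10.13, 10.04 and 9.93 in DC and 9.88, 9.89, 9.89 and 9.87 in RC. The RC arrays all lay below the DC arrays and within the wider CC range, with a difference of -0.19 between RC and DC (SE 0.07, adjusted p = 0.30 by limma). Groups without overlap were found for 2 members between DC and CC (Rps14 and Rpl39l), where 15.3% of all rows had none, for 1 between RC and DC (Rps19), where 6.29% had none, and for 0 between RC and CC, where 7.94% had none.

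**Figure D2:**
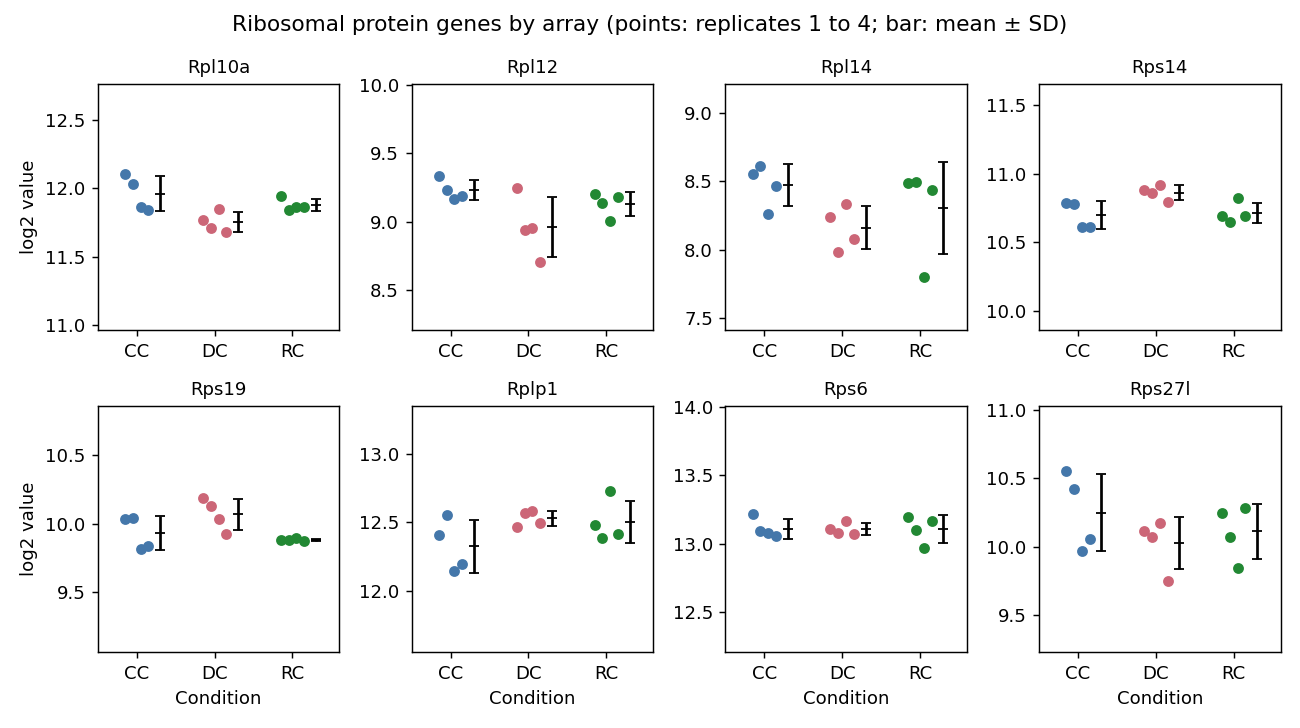
Log2 value (y axis, deposited scale) of 8 ribosomal protein genes by condition (x axis); points are the 4 arrays of a condition in the order of replicates 1 to 4, bars show the mean and SD, and every panel spans the same number of log2 units. Rps6 has the same mean of 13.11 in all 3 conditions, Rps14 is higher in DC without overlap with CC, and Rpl14 has 1 low RC array at 7.80.

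Among the variants, Rpl39l, a testis-enriched relative of Rpl39, had arrays from 5.79 to 5.96 in CC, from 5.97 to 6.25 in DC and from 5.91 to 6.16 in RC. All DC arrays lay above all CC arrays, by a gap in means of 0.20 (SE 0.08, adjusted p = 0.18 by limma), at values below the median of the table. Rps27l, a p53-responsive relative of Rps27, was at 10.25 ± 0.28, 10.03 ± 0.19 and 10.11 ± 0.20 in CC, DC and RC, and Rpl7l1, a relative of Rpl7, at 10.38 ± 0.22, 10.29 ± 0.13 and 10.33 ± 0.07 (SD, n = 4). Both were lower in DC than in CC by less than the SD within CC. Rpl3l, which replaces Rpl3 in striated muscle, was at 6.80 ± 0.11, 6.95 ± 0.08 and 6.84 ± 0.18, and Rps4l, a relative of Rps4x, at 7.94 ± 0.10, 8.11 ± 0.13 and 8.01 ± 0.13 (SD, n = 4). Rpl10l, a relative of Rpl10 used in the male germ line, ranged from 6.79 to 7.56 in DC alone, wider than any difference between its means. Of the further symbols, Rpl32l was at 7.83 ± 0.13, 8.01 ± 0.08 and 7.90 ± 0.11, Rps23rg1 at 8.17 ± 0.11, 8.34 ± 0.20 and 8.29 ± 0.29, and Rps19bp1 at 9.10 ± 0.08, 9.14 ± 0.06 and 9.20 ± 0.11 (SD, n = 4), with 0 calls by limma.

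Most members varied together over the arrays of a condition. After the condition means were subtracted, 54 of the 63 correlated above 0.5 with the mean of the other members. Below 0 were 5 (Rpl3l, Rpl10l, Rpl39l, Rps4l and Rps23rg1). All 5 were dim rows, near or below the median of all values, whereas the brightest class held 47 of the 63 members. The part of brightness in these correlations was not tested. The movement was not particular to the family. The member mean correlated at 0.86 with the mean of the mitochondrial ribosomal protein genes and at 0.83 with that of the brightest class. The median over the 63 members was 10.79, 10.78, 10.44 and 10.46 on the CC arrays, 10.79, 10.70, 10.86 and 10.46 on the DC arrays and 10.69, 10.55, 10.46 and 10.67 on the RC arrays. The means of these medians spanned 0.11 over the 3 conditions, and the arrays of CC, DC and RC spanned 0.34, 0.40 and 0.23. Single arrays spread more than means of 4 arrays even with no difference between conditions. These spans therefore do not rank the spread within conditions against that between them. CC 3, CC 4, DC 4 and RC 3 were the low arrays, and every condition held at least 1 of them. For 61 of the 63 members (96.8%), the range of the 4 CC arrays was wider than the span of the 3 condition means, against 70.4% of all rows.

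**Figure D3:**
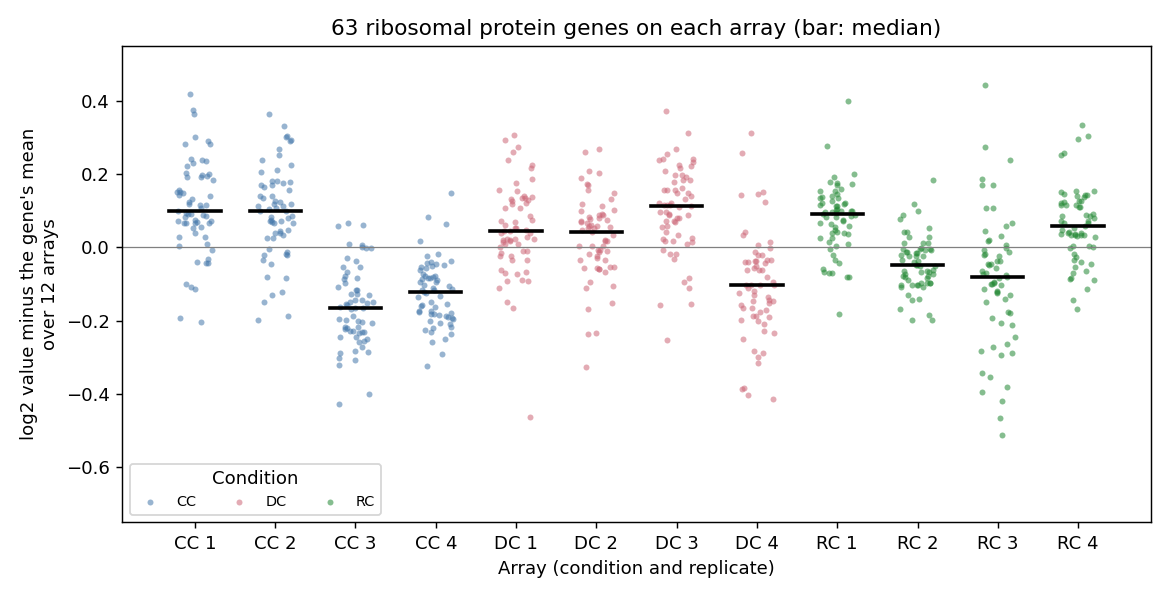
Log2 value minus the gene's mean over 12 arrays (y axis) for the 63 ribosomal protein genes on each array (x axis); points are genes, bars are medians and colours are conditions. The points of CC 3, CC 4, DC 4 and RC 3 lie mostly below 0, so each condition holds arrays on both sides.

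A split of the CC arrays was noticed in the values and is given with no test. In 54 of the 63 members (85.7%), both CC 1 and CC 2 were above both CC 3 and CC 4, with a median gap of 0.25. The same order held for 26.8% of all rows, 53.1% of the brightest class and 77.9% of 77 mitochondrial ribosomal protein genes. Rpl7, a large subunit protein, had the widest CC range, from 9.34 on CC 3 and 9.56 on CC 4 to 10.00 on CC 1 and 10.13 on CC 2. DC 4 was the lowest DC array for 69.8% of the members and 23.7% of all rows, and RC 3 the lowest RC array for 61.9% of the members and 34.3% of all rows. Among the brightest class these shares were 43.7% and 57.7%. The interquartile range of all values, a measure of how spread out an array is, was 2.44 on DC 4, 2.42 on RC 3, 2.58 on CC 3 and 2.57 on CC 4, and between 2.47 and 2.75 on the other 8 arrays. Its part in the movement of the members was not tested.

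Quantile normalization, which gives every array the same distribution, narrowed the range of the member medians in CC from 0.34 to 0.26, in DC from 0.40 to 0.26 and in RC from 0.23 to 0.10. The mean of the member medians was then 0.16 higher in DC than in CC, in place of 0.085 on the deposited scale, with arrays from 10.57 to 10.82 in DC and from 10.45 to 10.71 in CC, which still overlap. Cyclic loess gave 0.16 as well. The number of members called stayed at 0 after quantile normalization and was 1 (Rps14, higher in DC) after cyclic loess, which called 7.56% of all rows. With the interquartile range of each array as a covariate, 4 members were called higher in DC than in CC (Rpl36a, Rps20, Rps29 and Rps4x), where 6.91% of all rows were called in either direction, and Rps14 was not among them. With weights for array quality, Rpl32l, Rplp1, Rps14 and Rps19 were called higher and Rpl12 lower in DC, while the calls over all rows rose from 2360 to 4840 (13.6%). Counted in either direction, the share of members called was below the share of all rows called in each of these fits. Among calls higher in DC alone, 4 of 63 members stood beside 1203 of 35556 rows with the covariate and 1843 with array weights. The share of members was the larger in both. With cyclic loess 1 of 63 members stood beside 1073 rows, a smaller share. No member was called by all 3 of the methods named last.

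**Figure D4:**
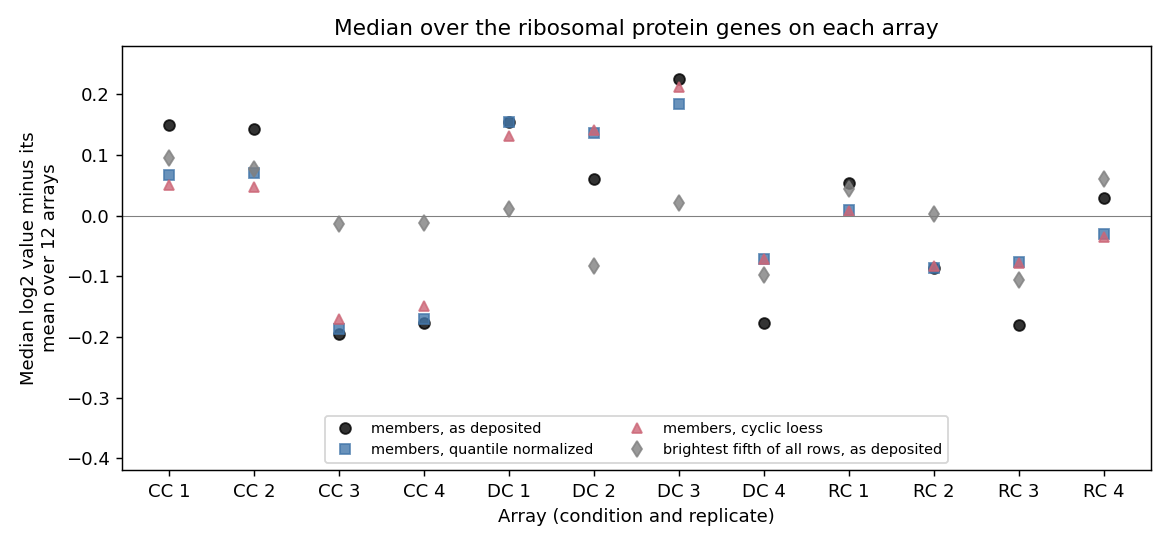
Median log2 value over the ribosomal protein genes on each array, minus its mean over the 12 arrays (y axis), by array (x axis), as deposited (circles), after quantile normalization (squares) and after cyclic loess (triangles), with the brightest of 5 equal classes of all rows as deposited (diamonds). CC 3 and CC 4 stay low under every scaling, and the gap between the means of DC and CC grows from 0.085 to 0.16.

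The rows left aside also held no call. All 219 rows of the members held 0 calls in each comparison by limma, with 8, 5 and 0 at an unadjusted p under 0.05 for DC against CC, RC against DC and RC against CC. At that unadjusted threshold 20.6%, 11.8% and 9.06% of all rows passed. A further 239 rows named a ribosomal protein gene among several symbols, and these too held 0 calls, with 3, 0 and 0 at an unadjusted p under 0.05. In 39 members more than 1 row carried the symbol, up to 14 for Rps12, and 19 member rows repeated all values of another row. Ribosomal protein genes have many processed copies in the genome, and probes can read transcripts of near-identical sequence together, so a row is uncertain as a measure of 1 gene.

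Mitochondrial ribosomal proteins, which build the separate ribosome of the mitochondrion, had a median between DC and CC on the other side of 0 on the deposited scale. The brightest class of all rows had a median below 0 as well, at -0.06, and the sign of the member median turned after centring. Of 77 genes, 20 were above 0 in DC against CC, with a median difference of -0.07, and 2 fell while 0 rose, where 6.64% of all rows were called. Mrpl37 fell by 0.28 (SE 0.08, adjusted p = 0.045 by limma) and Mrps25 fell by 0.22 (SE 0.06, adjusted p = 0.042 by limma), calls lost in 15 and 14 of 24 alternatives. Between RC and DC the median was 0.07, and Mrps6 rose by 0.41 (SE 0.09, adjusted p = 0.032 by limma, lost in 9 of 24 alternatives), where 2.63% of all rows were called. Between RC and CC 0 were called (1 at an unadjusted p under 0.05). The difference between the families was not tested.

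The partners of the ribosome in translation, listed because many of their mRNAs also carry a TOP motif, were called in 0 of 17 measured genes in each comparison (limma, unadjusted p under 0.05 for 5, 0 and 1). Over all rows, 6.64%, 2.63% and 0.796% were called in DC against CC, RC against DC and RC against CC. In the same order, 20.6%, 11.8% and 9.06% of all rows had an unadjusted p under 0.05. Eef1d, a subunit of the exchange factor of elongation factor 1, was at 9.58 ± 0.09, 9.40 ± 0.03 and 9.46 ± 0.04 in CC, DC and RC (SD, n = 4), with a difference between DC and CC of -0.18 (adjusted p = 0.087 by limma). Nap1l1, a histone chaperone, was at 10.26 ± 0.12, 9.95 ± 0.10 and 10.18 ± 0.24 (SD, n = 4). Npm1, the nucleolar chaperone of ribosome assembly, was at 10.87 ± 0.13, 10.74 ± 0.13 and 11.02 ± 0.34, and Btf3, part of the nascent polypeptide complex, at 11.30 ± 0.09, 11.46 ± 0.16 and 11.58 ± 0.22 (SD, n = 4).

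Some regulators of ribosomal protein synthesis changed. Of 28 genes of the mTOR and MYC pathways, all measured, 4 rose and 2 fell between DC and CC, 1 fell between RC and DC, and 1 was lower in RC than in CC, where 6.64%, 2.63% and 0.796% of all rows were called. Ddit4, also called REDD1, an inhibitor of mTORC1 that is induced by low oxygen, was at 9.37, 9.42, 9.27 and 9.31 in CC, 10.35, 10.39, 10.62 and 9.77 in DC and 9.35, 9.22, 9.47 and 9.37 in RC. Every DC array was above every other array. It rose by 0.94 in DC (SE 0.14, 1.92-fold, adjusted p = 0.0013) and fell by 0.93 in RC against DC (adjusted p = 0.0031, both by limma), and it kept both calls under all 24 alternatives.

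Mxi1 and Mnt, antagonists of MYC that pair with MAX, rose by 0.45 (SE 0.10, adjusted p = 0.014) and 0.29 (SE 0.08, adjusted p = 0.041) between DC and CC by limma. The call was lost in 1 of 24 alternatives for Mxi1 (adjusted p = 0.119 with the member median of each array subtracted) and in 12 of 24 for Mnt. Sesn3, a sestrin that restrains mTORC1, rose by 0.43 (SE 0.12, adjusted p = 0.046), a call that was lost in 12 of 24 alternatives. Eif4ebp2, which represses cap-dependent translation, fell from 11.25 ± 0.15 in CC to 10.85 ± 0.10 in DC (adjusted p = 0.012, lost in 4 of 24 alternatives) and was lower at 10.79 ± 0.10 in RC than in CC (adjusted p = 0.032, lost in 11 of 24; SD, n = 4). Tsc2, a brake on mTORC1, fell by 0.26 between CC and DC (SE 0.07, adjusted p = 0.034 by limma), a call lost in 14 of 24 alternatives. The listed genes that moved thus include both restraints that rose and restraints that fell.

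Larp1, which binds TOP mRNAs, was at 10.77 ± 0.09, 10.77 ± 0.12 and 10.80 ± 0.11 in CC, DC and RC, and Mtor at 9.29 ± 0.10, 9.37 ± 0.09 and 9.22 ± 0.05 (SD, n = 4). Eif4ebp1 was at 10.45 ± 0.07, 10.57 ± 0.30 and 10.54 ± 0.10, and Myc at 8.48 ± 0.09, 8.49 ± 0.32 and 8.40 ± 0.13 (SD, n = 4). None of these 4 passed the test in any comparison. Of 6 measured kinases of the S6 kinase families, 1 was called, where 6.64% of all rows were called between DC and CC and 2.63% between RC and DC. Rps6ka5, also called MSK1, a kinase that acts in the nucleus on histones and transcription factors, was at 8.58 ± 0.11, 9.14 ± 0.10 and 8.72 ± 0.15 in the CC, DC and RC cultures (SD, n = 4). It rose by 0.55 in DC (SE 0.09, adjusted p = 0.0017 by limma), kept in all 24 alternatives, and fell by 0.42 in RC against DC (adjusted p = 0.022), lost in 7 of 24. Rps6kb2, an S6 kinase proper, was at 10.32 ± 0.08, 10.23 ± 0.08 and 10.19 ± 0.02 (SD, n = 4) and was not called. The arrays measured mRNA levels of these regulators and not the activity of their proteins.

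**Figure D5:**
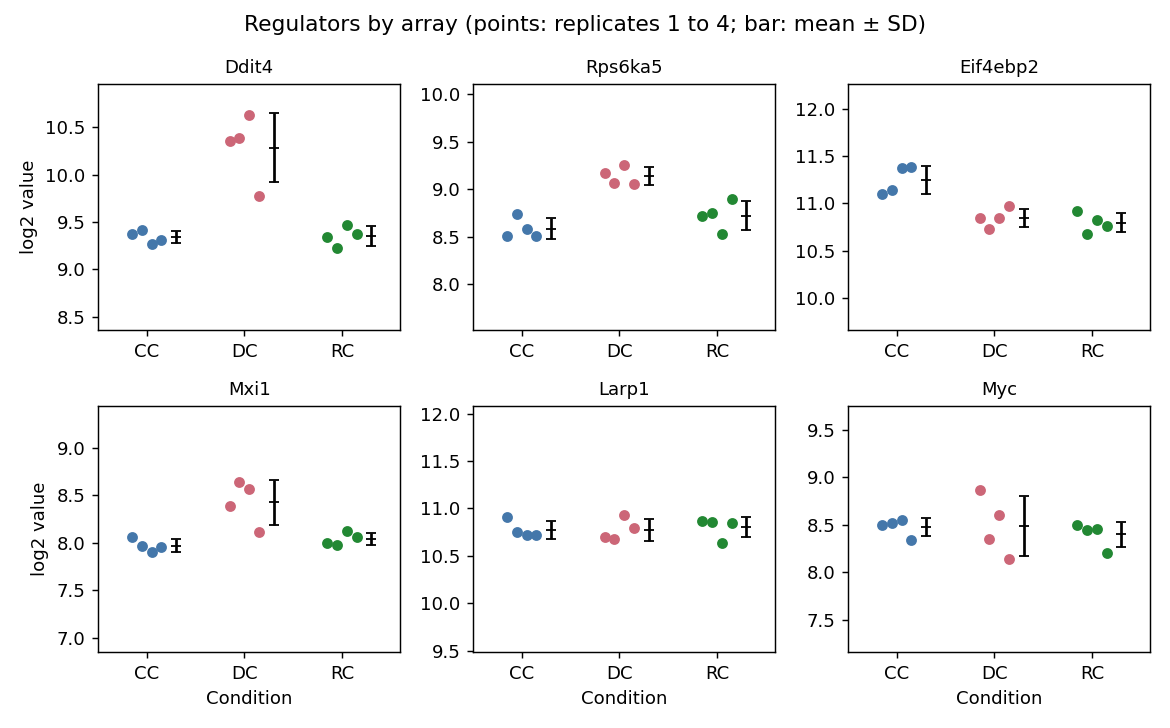
Log2 value (y axis, deposited scale) of 6 regulators by condition (x axis); points are the 4 arrays of a condition in the order of replicates 1 to 4, bars show the mean and SD, and every panel spans the same number of log2 units. All 4 DC arrays of Ddit4 (9.77 to 10.62) lie above its CC and RC arrays, while Larp1 and Myc overlap in all 3 conditions.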

How the data were processed

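Total RNA of 12 Min6 samples was measured on Affymetrix Mouse Gene 1.0 ST arrays, per the labels' protocols. The deposited values are 1 log2 value per row and array; the log2 scale was read from their range (3.69 to 14.5), and their summarisation, normalization between arrays and genome build are not stated in the labels. They were used as deposited for the main results. Rows were named through the platform annotation table: 21789 carry 1 symbol, 1621 several and 12146 none. The 3 condition means were estimated from all 12 arrays together in limma 3.58.1 under R 4.3.3 (lmFit, contrasts.fit, eBayes; 9 residual degrees of freedom), with two-sided tests, Benjamini-Hochberg adjustment over all 35556 rows and a threshold of 0.05. The fit was tested on simulated data with noise drawn independently for each row and array. That test does not cover movement shared by many rows of an array. Errors of differences are limma's standard errors. Values of different genes were not compared, apart from the position of a row against the median of all values and its brightness class. The number of arrays limits the precision.

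The members and gene lists were chosen with earlier results of these data known. Named members are those with the 3 smallest p in a direction of each comparison, since none was called, together with the P proteins, Rpsa, Rps6, Rpl5 and the variants. In other lists the rule takes up to 4 called genes, or the 2 with the smallest p, with Larp1, Mtor, Eif4ebp1, Ddit4 and Myc always. Rpl7, Rps25, Rps23rg1, Mnt, Tsc2, Mrpl37, Mrps25, Mrps6, the members called only under an alternative and the beta cell markers named were picked after their values were seen. The 12 alternatives beside leaving out single arrays concern scaling, weights, covariates, filters and the choice of rows; 2 of them were added after seeing the data.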

Additional observations from a re-analysis of the deposited data

Results flagged for a closer look

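In 156 groups of 4 arrays (52 items, the named genes and the median over the members, in 3 conditions), the distance from the extreme array to its nearest neighbour was set against the range of the group, and 8 exceeded Dixon's 95% critical value for 4 samples; chance gives about 1 in 20. Rpl10l was high on RC 3, at 7.42 against 7.16 to 7.17 on the other RC arrays (ratio 0.966). Rpl14 was low on RC 3, at 7.80 against 8.44 to 8.50 (ratio 0.916). Rps19bp1 was high on CC 1, at 9.21 against 9.05 to 9.07 (ratio 0.902). Larp1, the binder of TOP mRNAs, was high on CC 1, at 10.91 against 10.72 to 10.75 (ratio 0.848), and low on RC 3, at 10.64 against 10.85 to 10.86 (ratio 0.934). Outside the family, Tsc2 was high on CC 2, at 10.90 against 10.78 on the others (ratio 0.981), Mrpl37 was low on CC 4, at 10.04 against 10.11 to 10.12 (ratio 0.864), and Chgb was low on DC 2, at 12.94 against 13.03 to 13.04 (ratio 0.908).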

How the results depend on the processing

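Array weights raised the rows called from 2360 to 4840 (DC against CC), from 936 to 6413 (RC against DC) and from 283 to 2818 (RC against CC); the members then gave 4 higher and 1 lower, 2 higher (Rpl12, Rpl14) and 2 lower (Rpl3l, Rps14), and 2 higher (Rps10, Rps25). With the interquartile range as a covariate, 1737 rows were called in RC against DC, 636 in RC against CC and 4 members higher in DC; cyclic loess called 1 member. For RC against CC, 439 rows were called among those above the median, 580 without DC 2, DC 4 and RC 3 together (chosen after seeing the data) and 68 with the replicate block; for RC against DC, 462 rows were called from the 8 arrays compared alone. The cause of these shifts was not tested. After the condition means were subtracted, same-numbered arrays of different conditions correlated from -0.36 to 0.47, above 0.1 in 5 of 12 pairs. On the deposited values, the mean correlation of an array with the others of its condition was 0.976 to 0.995. The pairs of replicate 1 gave 0.18, 0.47 and 0.32. Whether a shared number marks a shared batch was not tested, and the replicate block called 0 members in any comparison. Leaving out single arrays gave 1549 to 3718 (DC against CC), 522 to 2892 (RC against DC) and 57 to 352 rows (RC against CC). The highest counts of the first 2 came without RC 3, and the lowest without DC 2, RC 1 and RC 1; the counts also moved by over 1.5 times without CC 1 for DC against CC, without DC 2, RC 2 or RC 4 for RC against DC, and without any CC array, RC 2 or RC 4 for RC against CC. Members called higher for DC against CC ranged from 0 to 1 (Rpl10l, without DC 1), and lower from 0 to 1 (Rpl12 without DC 1, Rpl14 without RC 3). Among called rows for DC against CC, 823 were higher and 1537 lower, against 502 and 1698 after centring and 1203 and 1253 with the covariate; for RC against CC, 43 and 240 became 272 and 364 with the covariate, 1477 and 1341 with array weights and 24 and 335 after centring. Subtracting the member median of each array (chosen after seeing the data) put the median of all rows at 0.10 for RC against DC, in place of -0.01. The median member difference ranged from -0.04 to 0.17, -0.07 to 0.08 and -0.03 to 0.13 over the alternatives in the same order of comparisons, each moved from its main value by less than 1 SD of the array medians (0.16). Of 3660 gene values under alternatives, calls were gained by 37 under other settings and 12 with single arrays left out, lost by 60 and 72, and 0 reversed while called.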
